A study of Homo sapiens with 197 samples.

Results

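The wells described here are 11 wells of IMR90 cells that were each infected with 1 activated kinase of the mitogen-activated protein kinase (MAPK) cascades. A well was included when its kinase label began with MAPK or MAP2K, or was MAP3K6 or MKNK1, which gave 11 wells, or 6.01% of the kinase wells compared and 5.58% of all lanes. IMR90 is a line of non-transformed human lung fibroblasts. The kinases were encoded by retroviruses and activated by a myristoylation signal, which brings a protein to the membrane, and RNA was taken after 4 days. All other kinase wells, among them those of MAP3K7, MAP3K8 and MAP3K14, were made the same way, and the 2 IMR90 controls, labelled as empty vector, stand for the background. The well of HK1 and the second lanes of PIK3CG, PTK2 and 1 of the IMR90 controls were left out. Each kinase had 1 lane, so that a difference between wells could be read only against the spread over other kinases, and neither kinase protein nor kinase activity was measured in the files used. The 5 fibroblast markers COL1A1, COL1A2, VIM, THY1 and PDGFRB were not among the probes, so the label of the cells could not be checked with them. Whether the wells came from separate cultures of cells is not stated, and p-values measure only the spread between these wells.

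In a MAPK cascade, a kinase of the MAP3K level phosphorylates a MAP2K, which phosphorylates a MAPK, which acts on transcription factors and on further kinases. MAP3K6 (ASK2) is of the top level. MAP2K5 (MEK5) acts on MAPK7 (ERK5), and this pair is called the ERK5 branch here. MAP2K6 (MKK6) acts on the p38 kinases, of which MAPK14 (p38 alpha), MAPK13 (p38 delta) and MAPK12 (p38 gamma) were present and are called the p38 branch. MAP2K7 (MKK7) acts on JNK kinases, MAPK6 (ERK3) is an atypical MAPK, and MKNK1 (MNK1) is phosphorylated by ERK and p38 kinases and acts on the translation factor eIF4E. MAPKAP1 came in by its name only, since it encodes SIN1, a subunit of the mTORC2 complex that is not a kinase.

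RNA was measured by Nanostring, in which color-barcoded probes are counted without amplification. Counts were scaled in each lane by the 6 positive controls and then by the housekeeping genes PGK1, TBP and TUBB2A, which gives the normalized count used throughout. The total count was 63542 (MAPK14) to 273685 (MAPK7) in the cascade wells, with a median of 152264, and 29629 to 340763 in the other kinase wells. MAPK14 needed a scaling factor of 3.63 and MAPK12 of 1.83, against a median of 0.959 over the cascade wells, so their low counts are the least precise. Of the 58 rows compared (42 tissue-restricted genes, 15 other endogenous rows and B2M), 17 were above the negative-control level, taken as the mean + 2 SD of the 8 negative controls of a lane, in most kinase wells. Of the tissue-restricted genes, 4 were among these 17, namely ADAM12, ATAD2, ALAS1 and PLCZ1. The names of the 15 other endogenous rows may be displaced in the files, as set out with their values further on, so these rows are called by the name they carry and no role is given for them.

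No row set the 11 cascade wells apart from the other kinase wells. In edgeR's quasi-likelihood test with Benjamini-Hochberg adjustment over all rows, 0 of 58 rows passed an adjusted p of 0.05 (0%). A single row, ASZ1, had an unadjusted p under 0.05, with a log2 fold change of -0.42 (SE 0.17, adjusted p = 0.730). ASZ1 acts in the piRNA pathway of germ cells, and its normalized count was 3.63 to 12.02 in the cascade wells, with a median of 8.22, and 3.65 to 35.9 in the others, with a median of 10.9. These values lie within the background of the assay. Each lane holds RNA of a whole well, so fewer cells that express a gene and less RNA per cell cannot be told apart. DESeq2 with the same scaling factors also gave 0 calls, with 1 row at an unadjusted p under 0.05, and a permutation test of each row gave 0 calls and 3 such rows. Over all 58 rows, 29 differences were positive and 29 negative, with a median of 0.003 on the log2 scale.

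ADAM12, a metalloprotease abundant in placenta and the gene that the study follows, was not higher in the cascade wells. The normalized count of ADAM12 was lowest in MAP2K5 (30.7) and highest in MAPK14 (61.7), with a median of 41.1. In the other kinase wells the values went from 25.8 to 496, the latter in MAP3K7 (TAK1), with a median of 44.4, and the controls stood at 34.5 and 46.1. All 11 cascade wells thus lay inside the range of the other wells, and only MAPK7 and MAPK14 were above both controls. The mean log2 value was lower by a difference of -0.12, which did not pass a two-sided permutation test over all kinase wells (p = 0.279). MAP3K6, a MAP3K like TAK1, had an ADAM12 value of 44.2, and MAP2K6 and MAP2K7 had 40.4 and 36.5. In MAPK14 the value rested on 17 counts, with an exact 95% Poisson interval of 9.9 to 27.2 counts that covers counting error only.

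**Figure D1:**
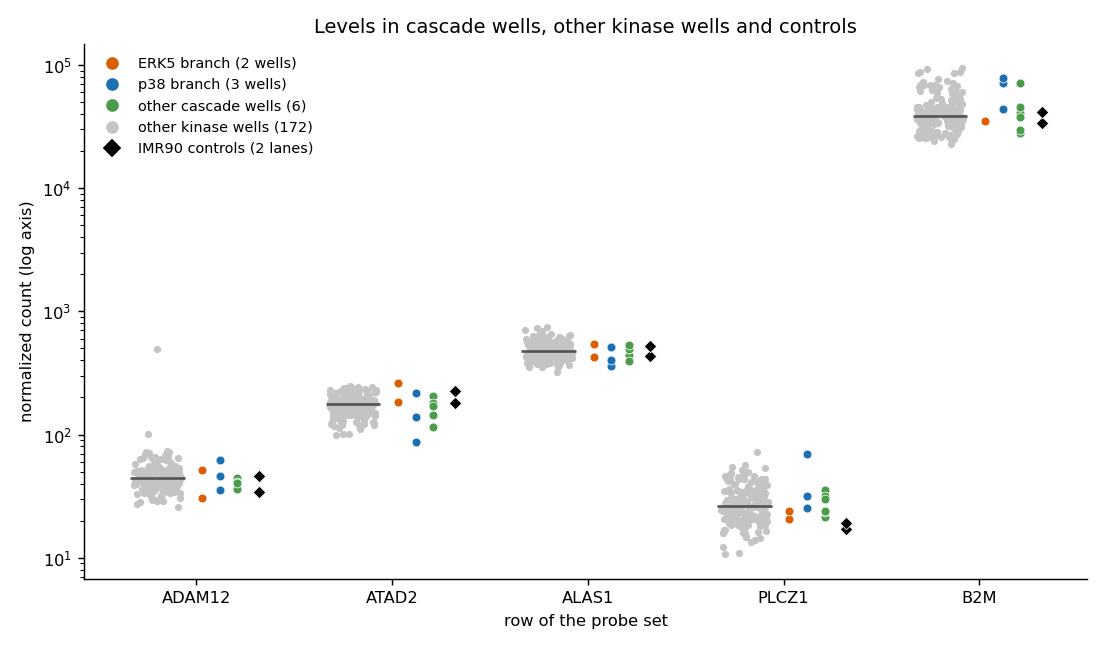
Normalized counts (log axis) of ADAM12, ATAD2, ALAS1, PLCZ1 and B2M in the other kinase wells (grey, with their median as a line), the ERK5 branch, the p38 branch, the 6 other cascade wells and 2 IMR90 controls. Every point is 1 lane. The cascade wells lie within the grey points, except that MAPK7 (263) and MAPK12 (87.8) lie just outside them in ATAD2, and B2M is higher in the 3 p38 wells than in the 2 ERK5 wells.

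ALAS1 encodes the enzyme that limits haem synthesis, and it was the best counted of the tissue-restricted genes. Its normalized count was 362 (MAPK13) to 538 (MAPK7) in the cascade wells, with a median of 493.5. The other kinase wells had 321 to 744, and the controls 438 and 519. The log2 fold change was -0.05 (95% interval -0.19 to 0.09), with an edgeR adjusted p of 0.991.

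ATAD2, a bromodomain ATPase, held both ends of the whole screen within the cascade wells. Its normalized count was 263 in MAPK7, the highest of all kinase wells, and 87.8 in MAPK12, the lowest. The value in MAPK12 rested on 48 counts. MAP2K5 stood at 183.4, MAPK14 at 218 and MAPK13 at 138.8. Thus neither of the branches was uniform. Among the remaining cascade wells, MAP2K7 had 116.1, a level below which only 6 kinase wells lay, and MAP3K6 had 142.8, MAP2K6 171.5, MAPKAP1 179.9, MKNK1 180.8 and MAPK6 206. The other kinase wells lay between 99.97 and 249 (median 175.7). As a group, the cascade wells had a log2 fold change of -0.04 against them (SE 0.09, edgeR adjusted p = 0.991), while the SD of the log2 values was 0.44 over the cascade wells and 0.28 over the others, a difference in spread for which no test was made.

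The ATAD2 extremes were then placed against the wells around them. The labels number the samples, and blocks of 12 consecutive numbers were compared, although no label says what such a block is. MAPK7 was in a block whose other wells had a median ATAD2 of 229, and MAPK12 in a block with a median of 125.9. The other blocks had medians of 158.8 to 213. Both extremes also lay beyond their own block, MAPK7 above its other wells (201.7 to 249) and MAPK12 below its other wells (99.97 to 200.3). Relative to the mean of the other wells of the block, ATAD2 was 0.20 higher in MAPK7, 0.58 lower in MAPK12 (log2 difference of -0.58) and 0.47 lower in MAP2K7 (-0.47). Whether the block has a part in these extremes was not tested. The cascade wells fell in 9 of 17 blocks.

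**Figure D2:**
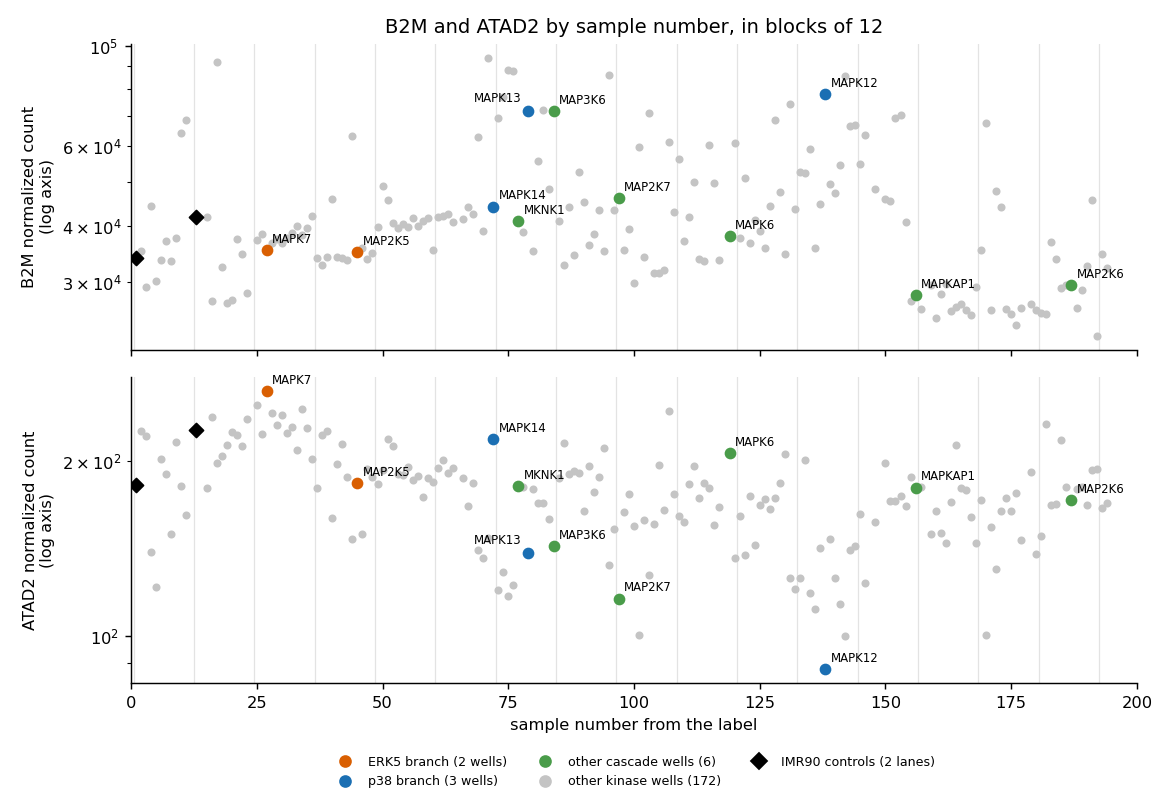
Normalized counts (log axes) of B2M and ATAD2 against the sample number in the label, with vertical lines every 12 numbers. Points are lanes, and colours mark the ERK5 branch, the p38 branch, the 6 other cascade wells, the other kinase wells and the controls. MAPK13 and MAP3K6, both in 1 block of 12, have similar B2M (71713 and 71624), while MKNK1 in the same block has 40997. The other kinase wells of that block go from 35162 to 88368.

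The ERK5 and p38 branches were then compared directly, which asks whether MAPK modules with different substrates leave different marks on these genes. With 2 wells against 3, no row passed (0 of 58, 0%), and 6 rows had an unadjusted p under 0.05. DESeq2 with the same scaling factors also made 0 calls, with 7 such rows. ATAD2 had the smallest p, with a log2 fold change of ERK5 over p38 of 0.64 (95% interval 0.14 to 1.14, SE 0.25, edgeR adjusted p = 0.400). Because MAPK14 stood at 218, above MAP2K5 at 183.4, the branches overlapped in ATAD2. Without MAPK14, the p38 well that made the overlap, the ATAD2 difference was 0.95 and passed (edgeR adjusted p = 0.0367). It was 0.37 without MAPK12 (adjusted p = 0.844) and 0.61 without MAPK13 (adjusted p = 0.449), and neither passed. With only 1 ERK5 well kept, the difference was 0.35 without MAPK7 and 0.87 without MAP2K5. With the blocks of 12 as a term in the fit it was 0.20 (adjusted p = 0.920).

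B2M, the light chain of MHC class I molecules, was among the 14 of 58 rows in which the branches did not overlap. Its normalized count was 35322 in MAPK7 and 34898 in MAP2K5. In the p38 branch it was 44045 in MAPK14, 71713 in MAPK13 and 78183 in MAPK12. The log2 fold change of -0.88 (95% interval -1.77 to 0.01) did not pass, with an edgeR adjusted p of 0.434. It was -0.30 with the blocks as a term (adjusted p = 0.920) and -0.95 with scaling by the positive controls only (adjusted p = 0.559). The scaling genes PGK1, TBP and TUBB2A did not overlap between the branches either. Their mean log2 differences, ERK5 minus p38, were -0.25, 0.11 and 0.14. MAP3K6 matched the high p38 wells at 71624, whereas MAP2K6, the direct activator of p38 kinases, had 29495. The remaining wells had 40997 (MKNK1), 45925 (MAP2K7), 37950 (MAPK6) and 28039 (MAPKAP1). The other kinase wells ranged from 22793 to 93969 with a median of 38790, and the controls had 33999 and 41749.

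The p38 branch against the other kinase wells gave 0 of 58 calls (0%), with 4 rows at an unadjusted p under 0.05, and DESeq2 with the same scaling factors gave 0 calls. B2M had the smallest p of these, with a log2 fold change of 0.60 (95% interval 0.09 to 1.12, SE 0.26, edgeR adjusted p = 0.524). It was 0.19 with the blocks as a term (adjusted p = 0.922). The block of MAPK13, which also holds MAP3K6 and MKNK1, had a median B2M of 69282 in its 9 other kinase wells, and that of MAPK12 had 52568. The ERK5 branch against the other kinase wells gave 0 calls as well (0%), with 0 rows at an unadjusted p under 0.05 in edgeR and 0 in DESeq2. For ADAM12 the intervals were -0.97 to 0.51 for the ERK5 branch and -0.78 to 0.57 for the p38 branch on the log2 scale, so that changes within these bounds could not be told from none.

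**Figure D3:**
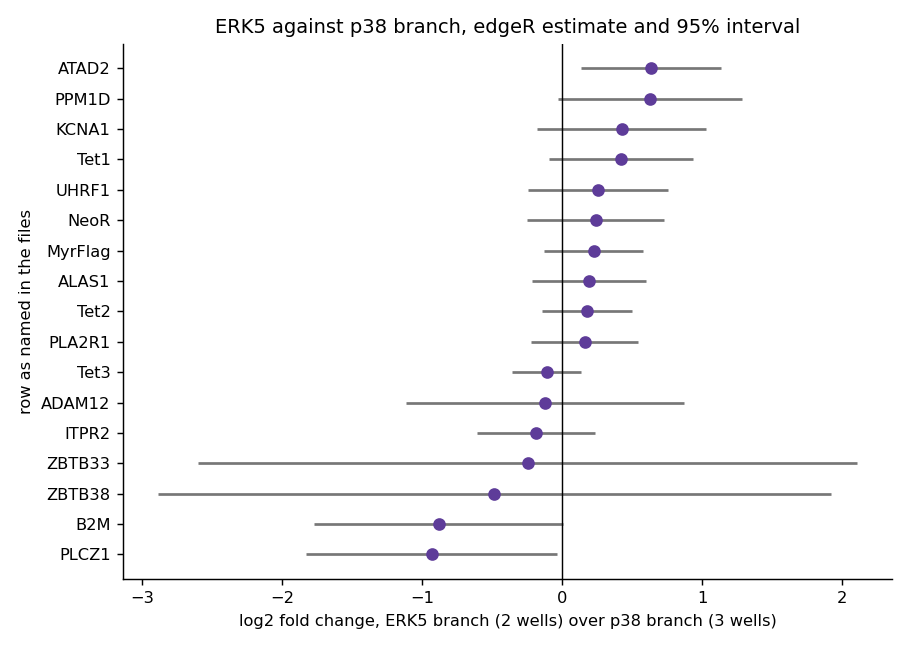
Log2 fold change of the ERK5 branch (2 wells) over the p38 branch (3 wells) for the 17 rows above background, with the edgeR estimate as a point and the 95% interval as a line. The intervals of ATAD2 (0.14 to 1.14) and PLCZ1 (-1.83 to -0.04) leave out 0 before adjustment, and neither row passed after it.

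PLCZ1, a sperm phospholipase that activates the egg, was the weakest of the rows above background. Its normalized count was 20.8 in MAPK7 and 23.9 in MAP2K5, and 25.4 in MAPK14, 31.6 in MAPK13 and 69.5 in MAPK12. The branches did not overlap, with a log2 fold change of -0.93 (SE 0.45, edgeR adjusted p = 0.400). It was -0.25 with the blocks as a term (adjusted p = 0.920) and -0.40 without MAPK12 (adjusted p = 0.844). MAPK12 was the second highest of all kinase wells, and this value rested on 38 counts against a negative-control level of 14.9. The row named PPM1D was the remaining row above background in which the branches did not overlap, with 199.6 and 166.3 in MAPK7 and MAP2K5 and 163.5, 105.7 and 96.9 in MAPK14, MAPK13 and MAPK12. Of the 17 rows above background, 14 overlapped between the branches, and of the 41 within background, 30 did.

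The rows within background that had an unadjusted p under 0.05 between the branches were the germ cell helicase DDX4, the meiosis gene SPATA22, ADAM2 and MAGEA4. DDX4 had normalized counts of 9.70 and 5.97 in MAPK7 and MAP2K5 and 14.5, 13.7 and 27.4 in MAPK14, MAPK13 and MAPK12. The log2 fold change was -1.19 (SE 0.52) with an edgeR adjusted p of 0.400. In MAPK14 this value came from 4 counts, under the negative-control level of 4.35, and in MAPK7 from 14 counts under a level of 56.3. The lanes thus differed in the background against which a weak gene was read, and an order among such values cannot be given.

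Z-scores placed each well against the mean and SD of log2(normalized count + 1) over the other kinase wells, as a description with no test. Of the 638 pairs of a cascade well and a row, 2 had a Z-score above 2.5 (0.313%) and 8 below -2.5 (1.25%). In the other wells 0.351% of 9976 pairs were above 2.5 and 0.862% below -2.5, so the share above was near the background of the screen. Centred on the block, the shares above were 1.25% in the cascade wells and 0.568% in the others, and 7 of the 8 cascade pairs were in MAPK14. The 2 pairs above were both in MAPK12, namely PLCZ1 (Z of 2.75) and the cancer/testis antigen FMR1NB (Z of 2.62, 27 counts). Relative to the block these were 1.502 and 1.717, and with scaling by the positive controls only 1.67 and 1.60, so neither passed 2.5 there. No pair of a cascade well was above 3.5.

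Of the 8 pairs below -2.5, 5 were in MAPK14. DAZL (Z of -5.12), TKTL2 (-4.40) and BRDT (-3.22) had 0 counts there, and RNF17 (-3.39) and ASZ1 (-2.83) had 1 count each. These are germ cell genes, except TKTL2, which encodes a transketolase-like enzyme. A count of 0 allows up to 3 counts, which is a normalized count of 10.9 in this lane, above the median of the other wells for DAZL (8.18), TKTL2 (5.24) and BRDT (3.03). A lower level in MAPK14 was therefore not detectable at this depth, and with counts raised to the negative-control level of each lane the 5 Z-scores lay between -1.21 and -1.10. C10ORF82 in MAP2K5 (Z of -3.20) also came from 1 count.

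The remaining low pairs were above the negative-control level of 14.9 counts and both in MAPK12, a lane with a scaling factor of 1.83. ATAD2 had 48 counts and a Z-score of -3.51. The row named MyrFlag had 231 counts, a normalized count of 422 and a Z-score of -3.04, the lowest of all kinase wells, while the highest of all, 857, was in MAPK14. Relative to their block these Z-scores were -2.55 and -3.20. The row named Tet2 was highest of all kinase wells in MAPK6 (896, Z of 2.32). Of the 17 rows above background, 3 thus had their highest or lowest kinase well in the cascade, which holds 6.01% of the kinase wells. Other kinase wells came close to these ends. They reached 427.6 and 855.6 in the row named MyrFlag and 884.4 in the row named Tet2. Whether 3 rows are more than the share of the wells would give was not tested.

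**Figure D4:**
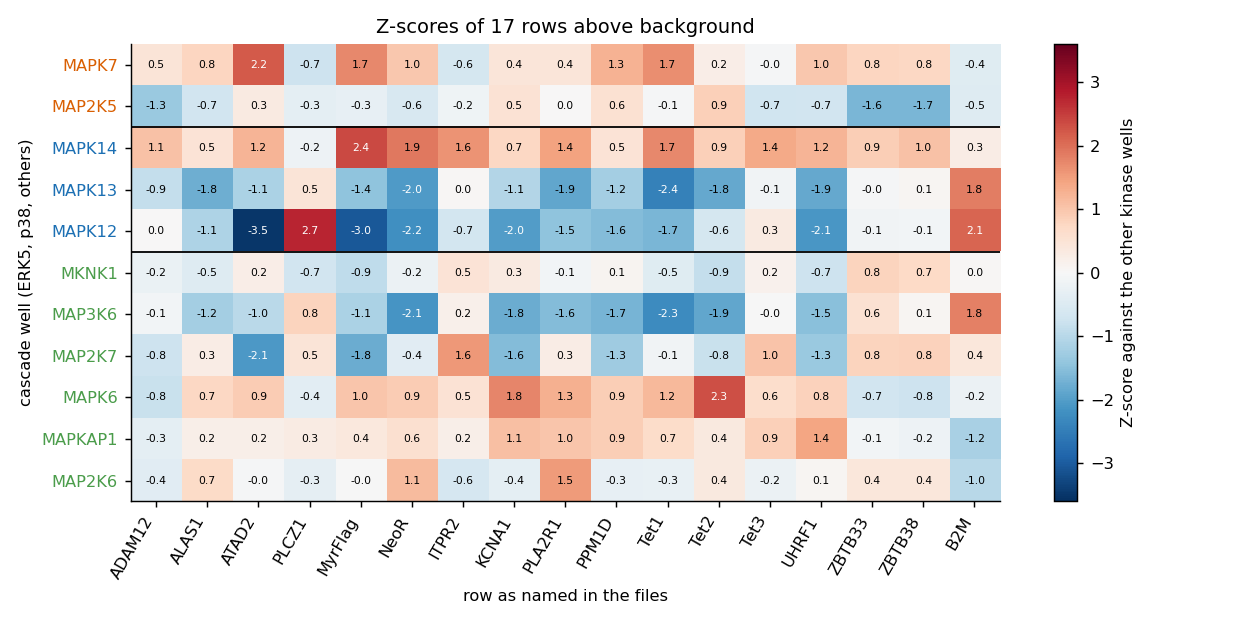
Z-scores of the 17 rows above background (columns, named as in the files) in the 11 cascade wells (rows, ERK5 branch on top, p38 branch next, the others below), against the other kinase wells. Red is higher and blue is lower. MAPK14 is positive in 16 of 17 rows, while MAPK13 and MAPK12 are negative in 13 of 17.

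The p38 wells did not share a profile over the 17 rows above background. MAPK14 was positive in 16 of 17 rows, with a median Z-score of 1.06. MAPK13 and MAPK12 were negative in 13 of 17, with medians of -1.13 and -1.10. A lane factor moves all rows of a well together. The housekeeping step took it from 2.66 to 3.63 in MAPK14, from 1.44 to 1.83 in MAPK12 and from 0.954 to 0.719 in MAPK13. The part of this step in the signs was not tested. The Pearson correlation of Z-scores over these 17 rows, which share the scaling of a lane, was 0.75 between MAPK12 and MAPK13 and -0.49 and -0.66 between each of MAPK13 and MAPK12 and MAPK14. MAPK7 and MAP2K5, the substrate and its activator, had 0.10. MAP2K6 had a correlation of 0.28 with MAPK14, -0.56 with MAPK13 and -0.35 with MAPK12.

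MAPK13, MAPK12 and MAP3K6 were alike over these rows, a group picked after the values were seen, with correlations of 0.95 (MAPK13 and MAP3K6) and 0.78 (MAPK12 and MAP3K6) beside the 0.75 above. In all 3 wells B2M and PLCZ1 were positive and ALAS1, ATAD2 and the rows named Tet1, Tet2, NeoR, PLA2R1, PPM1D, KCNA1, UHRF1 and MyrFlag were negative. The same was seen outside the cascade: 9 other wells (5.23%) had a B2M at or above the 71624 of MAP3K6, and of these 9 wells 8 were negative for ATAD2, 9 for the row named PPM1D and 0 for PLCZ1. Over all other kinase wells, log2 B2M had a Pearson correlation of 0.60 with PLCZ1, -0.42 with ATAD2 and -0.47 with the row named Tet1, values that share the scaling of a lane. PGK1, a glycolytic enzyme used for scaling, moved with B2M as well, with a correlation of 0.72. Its normalized count was 12107 in MAPK12, 11412 in MAPK13 and 11179 in MAP3K6, against a median of 9592 in the other wells, and those of TBP (386, 393 and 406) and TUBB2A (3746, 3898 and 3855) were below the medians of 426 and 4176. The part of the housekeeping genes in this profile was not tested.

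The well most like a cascade well was usually in the same block of 12 sample numbers. For no well of the ERK5 or p38 branch was it a member of the same branch. With 2 and 3 wells in the branches and all kinase wells as candidates, that result was nearly fixed in advance. The 6 other cascade wells belong to neither branch. The nearest wells therefore cannot decide whether members of a branch are alike. MAPK13 and MAP3K6 were nearest to LIMK1 (r of 0.97 and 0.96), MAPK12 to STK32C (0.94), MAPK7 to CDK9 (0.92) and MAP2K5 to STK38L (0.92), each in its own block of 12. MKNK1 with OXSR1 (0.75) and MAP2K6 with TIE1 (0.74) were also in 1 block. MAP2K7 was nearest to SPHK2 (0.84), MAPKAP1 to GK (0.84) and MAPK14 to ULK4 (0.71), in other blocks. The single pair within the cascade was MAPK6 with MAP2K5 (0.84). In all, 7 of 11 cascade wells (63.6%) had their nearest well in the same block, and 82 other wells (47.7%) did.

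The gene lists held no called row in any comparison of kinase wells. Of the 5 MAGE genes, 5 had a positive difference between cascade and other wells, beside 29 of 58 over all rows. Their median was 0.12 on the log2 scale, with 0 calls. The 7 cancer/testis antigens (PRAME, CTAG1B, SSX1, SSX2, XAGE1, XAGE3 and FMR1NB) had a median of 0.01, the 8 germ cell RNA-binding and piRNA genes -0.08, and the 8 germline chromatin and meiosis genes 0.02. The 7 sperm genes had a median of 0.08, the 6 enzymes 0.005 and the 7 rows named for DNA methylation factors -0.03, each with 0 calls, beside a median of 0.003 over all rows. Between the branches, the sperm genes had a median of -0.50 (6 of 7 negative) and the antigens -0.26 (4 of 7 negative). The enzymes had 0.22 (5 of 6 positive). Over all 58 rows the median was 0.08, with 30 positive and 28 negative. Of these lists, 1 sperm gene, 1 enzyme and 0 antigens were above background, as were 0 of the 5 MAGE genes. An order among values within background cannot be given. The germ cell markers DDX4, DAZL, MAEL and PIWIL1 were within background in most kinase wells.

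Against the 2 IMR90 controls, 1 of 58 rows passed (1.72%), and no tissue-restricted gene did. Of the 42 tissue-restricted rows, 40 had a positive log2 difference, with a median of 0.63 beside 0.51 over all rows. In edgeR, 0 of these 42 rows had an unadjusted p under 0.05, and 1 of all 58 rows did. That count was not stable. With the left-out lanes kept, among them the second lane of a control, 14 of 58 rows had such a p, and 1 row passed. ADAM2, the fertilin beta subunit of sperm, was above both controls in 9 of 11 cascade wells and in 87.2% of the other kinase wells, with controls at 11.5 and 12.03. Both control lanes were in blocks that hold no cascade well, and these values are within background. B2M had a log2 fold change of 0.31 (SE 0.38, edgeR adjusted p = 0.553), and ADAM12 of 0.05 (SE 0.41, adjusted p = 0.969).

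The row that passed was the one named ZBTB33, which was far higher in the kinase wells than in the controls. Its normalized count was 2566 in MAP2K5, 7475 in MAPK6, 13902 in MAPK12, 14355 in MAPKAP1, 15557 in MAPK13, 25724 in MAP2K6, 30197 in MAP3K6, 38462 in MAPK7, 39467 in MAP2K7, 40237 in MKNK1 and 43492 in MAPK14. The controls had 8.62 and 18.04, so the groups were far apart. The fitted log2 fold change was 10.84 (SE 1.94), with an edgeR adjusted p of 4.52e-06. Since both controls were under their negative-control levels (25.9 and 22.7 counts), the size of this change is not fixed by the data, and with counts raised to the level of each lane it was 10.00 on the log2 scale (adjusted p = 1.23e-05). The other kinase wells had 144.6 to 110746 with a median of 22129, and the cascade wells had a log2 fold change of -0.00031 against them (edgeR adjusted p = 0.999).

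**Figure D5:**
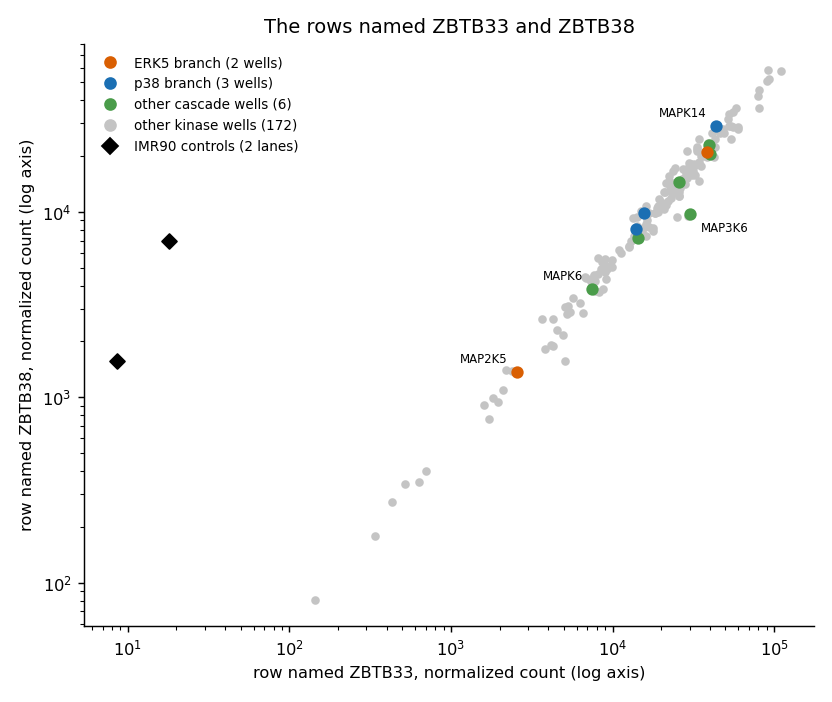
Normalized counts (log axes) of the row named ZBTB38 against the row named ZBTB33, 1 point per lane, in the cascade wells, the other kinase wells and the IMR90 controls. The kinase wells lie along a line, with MAP2K5 lowest among the cascade wells (2566 and 1374), and both controls (8.62 and 18.04 on the x axis) lie far to the left.

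The identity of this row is in doubt. It was at 6.14 and 6.76 in SW39, the transformed IMR90 derivative, and at 9.39 to 31.2 in the mixed reference RNA of cancer lines, whereas the row named MyrFlag, the tag carried by the kinases, had 655 and 704 in the controls, 2798 and 2488 in SW39 and 1178 to 1511 in the reference RNA, none of which was given a kinase. The row named ZBTB38 was at 4.14 to 8.03 in the reference RNA, at 1567 and 6934 in the controls and at 1374 (MAP2K5) to 29163 (MAPK14) in the cascade wells. The ratio of the row named ZBTB38 to the row named ZBTB33 was 0.321 in MAP3K6 and 0.505 to 0.671 in the other 10 cascade wells, and 0.312 to 0.73 in the other kinase wells. If the 15 names were displaced by 3 places, the names MyrFlag, NeoR and PuroR would belong to the rows named ZBTB33, ZBTB38 and ZBTB4. The paper reports that the tag was detected for all kinases and was absent from SW39 and from IMR90 cells that were not infected. The row named ZBTB33 has that pattern in the kinase wells and SW39, and the row named MyrFlag does not. The names were not checked against probe sequences, so the values are given by the name each row carries. Within the ERK5 branch the row named ZBTB33 was low in MAP2K5 (2566) and high in MAPK7 (38462).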

How the data were processed

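The authors deposited whole-number counts per probe for each Nanostring lane, with no normalization. They also deposited a series-wide table, whose signal equals the count times a constant of the lane. In 8 lanes this constant is 1, so these lanes hold counts that were not scaled. The 11 cascade wells were compared with 172 other kinase wells (183 in all) and 2 controls, of 197 lanes. The counts were used, and the deposited table served as an alternative. Each of the 75 probes was scaled as described (6 positive controls, then PGK1, TBP and TUBB2A), log2(normalized count + 1) was taken where a log scale is named, and no background was subtracted. Instrument settings beyond these are not given in the sources used here.

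Comparisons used edgeR 4.0.16 (R 4.3.3) on counts with the scaling factors as offsets: cascade against other wells in a fit of 2 groups, the branches in a fit of 4 groups over all kinase wells, and the controls in a fit of 3 groups. DESeq2 1.42.0, limma 3.58.1, other scalings, floors, blocks of 12 sample numbers and single wells left out were alternatives. Fold changes from edgeR are on its own log2 scale. Permutation tests (scipy 1.17.1) drew 100000 resamples. The fit of cascade against other wells was tested on simulated data, and the fits of the branches and of the controls were not.

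Named genes were those past the threshold, ADAM12, ATAD2, ALAS1, B2M, the scaling genes, the rows named MyrFlag and ZBTB33, pairs with a Z-score beyond 2.5 and rows above background. Other rows were named after their values were seen. Members and lists were chosen with earlier results of these data known.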

Additional observations from a re-analysis of the deposited data

How the results depend on the processing

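Most counts of calls kept to those reported. Cascade against other wells gave 0 calls under all 28 alternatives, and the ERK5 branch against other wells 0 under all 17, although 33 rows had an unadjusted p under 0.05 with counts raised to the negative-control level. Between the branches there were 0 calls, except 1 (ATAD2) without MAPK14, so that leaving out a well gave a range of 0 to 1. The p38 branch against other wells gave 2 calls with limma and 2 with limma on the deposited table, namely DAZL (log2 difference of -1.34, limma adjusted p = 0.0177) and TKTL2 (-1.24, adjusted p = 0.0177), which both had 0 counts in MAPK14, and 0 with a pseudocount of 10. Against the controls, DESeq2 with its own size factors gave 2 calls, the second being the row named Tet2 (-0.69, adjusted p = 0.0489). Rows at an unadjusted p under 0.05 against the controls went from 1 to 16 under 29 alternatives. The 16 came with scaling by the positive controls only, and keeping the left-out lanes gave 14. The number of pairs beyond a Z-score of 2.5 was 10, and it was 4 with counts raised to the negative-control level, 17 with medians and median absolute deviations in place of means and SDs, and 20 when centred on the block; the shares then were 3.13% in the cascade wells and 1.91% in the others, beside 1.57% and 1.21%. The ADAM12 difference went from -0.18 to -0.08 under 20 alternatives, with permutation p from 0.111 to 0.537. ATAD2 between the branches went from 0.20 to 0.95, with adjusted p from 0.0367 to 0.920, B2M from -1.09 to -0.30 and PLCZ1 from -1.17 to -0.25, both with adjusted p from 0.142 to 0.920. Blocks of 12 sample numbers as a term changed no call. The 41 rows within background are limited by the negative-control level of each lane, and of the cascade wells 1 count weighs most in MAPK14, where it is 3.63 normalized counts. The cause of these changes was not tested. No paired analysis was possible because the groups compared share no replicate numbers that pair their lanes.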
